A study of Homo sapiens with 8 samples.

Results

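The HOXA cluster was examined through 9 of its coding genes, HOXA2, HOXA3, HOXA4, HOXA5, HOXA6, HOXA7, HOXA9, HOXA10 and HOXA11. Peaks were taken within 10 kb of the body of any of these genes, a window on chromosome 7 of the human build hg38 at 27090354–27195232, and in the stretches on either side of it up to 200 kb from the gene bodies. The window held 34 of the 161291 accessible regions found in the series, and the stretches beside it held 36 more, 15 on the HOXA2 side and 21 on the HOXA11 side. All 9 genes are on the minus strand. Open chromatin had been profiled with ATAC-seq, where a transposase inserts adapters into accessible DNA, in U-937, a human myeloid leukaemia cell line. Cells received DMSO as vehicle, all-trans retinoic acid (ATRA, the ligand of the retinoic acid receptors) at 0.1 µM, Corin at 0.1 µM, or both compounds at 0.1 µM each (the combination), for 24 h. Corin is a small molecule directed at the demethylase and deacetylase activities of the CoREST co-repressor complex. Each of the 4 groups had 2 samples, which the authors had combined into 1 peak list, so the values below carry no replicate error and no difference could be tested.

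HOX genes encode homeodomain transcription factors that set position along the body axis in the embryo. They lie in clusters, are held silent by Polycomb proteins or active by trithorax proteins such as KMT2A, and act on DNA with MEIS and PBX cofactors. Retinoic acid is a classical inducer of the genes at the HOXA2 end of the cluster, whereas HOXA7, HOXA9 and HOXA10 are expressed in blood progenitors and in many myeloid leukaemias.

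The cell line label was set beside marker genes, counted as open where a region lay within 1 kb of a coding transcription start. Of 6 myeloid markers, SPI1, CEBPA, CD33, LYZ and CSF1R were open in all 4 lists, and MPO in 0. The T cell markers CD3E and CD3G, the erythroid markers KLF1 and HBB, the epithelial markers KRT18 and CDH1 and the hepatic markers ALB and APOA1 had no region at the start. Against this pattern, the B cell marker PAX5 was open in all 4 lists, while MS4A1, of the same cell type, was open in 0. GATA1 was open in 2 lists and EPCAM in 1. In a bulk assay, fewer open cells and less opening per cell cannot be told apart.

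For the regions the results turn on, 140 bases around the strongest summit are printed, plus strand, 5′ to 3′, with a motif match in capitals. Matches to the MEIS motif TGACAG were left in lower case. The first, the second and the last were taken by a rule for matches to CTCF or to direct repeats of the retinoic acid receptor (RAR) half-site. The other 2 were chosen after their values were seen. A single half-site was searched as AGGTCA. The repeats were searched with the looser form RGKTCA in both places, where R is A or G and K is G or T. A PU.1 match is GAGGAAGT, an AP-1 match TGANTCA, each on either strand.
Flank region with the spacer-5 repeat, chr7:27071720-27071859: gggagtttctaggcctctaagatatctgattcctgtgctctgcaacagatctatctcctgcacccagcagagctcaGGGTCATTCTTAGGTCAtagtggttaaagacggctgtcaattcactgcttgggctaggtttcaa
Flank region with the spacer-2 repeat, chr7:27079614-27079753: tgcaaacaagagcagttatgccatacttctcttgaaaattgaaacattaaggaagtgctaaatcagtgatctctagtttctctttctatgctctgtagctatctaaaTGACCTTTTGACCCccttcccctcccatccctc
Flank region with a PU.1 match, chr7:27073184-27073323: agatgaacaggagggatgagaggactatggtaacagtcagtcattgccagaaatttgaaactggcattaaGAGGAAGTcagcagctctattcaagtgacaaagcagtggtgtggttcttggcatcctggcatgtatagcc
Flank region with an AP-1 and a PU.1 match, chr7:27046967-27047106: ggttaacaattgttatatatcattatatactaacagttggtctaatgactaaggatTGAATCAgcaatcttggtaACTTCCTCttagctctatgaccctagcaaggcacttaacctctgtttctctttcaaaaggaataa
HOXA11-AS region with a CTCF match, chr7:27188877-27189016: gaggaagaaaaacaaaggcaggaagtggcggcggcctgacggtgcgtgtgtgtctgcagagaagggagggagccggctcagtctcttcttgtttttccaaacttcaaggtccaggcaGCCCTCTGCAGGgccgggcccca
The first match lay 6 bp from the strongest summit of its region and the second 37 bp. Both repeats contain a half-site match. A match is a description of the letters and not a measured binding site.

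The window held open regions in all 4 conditions. The DMSO list had 25 regions there, ATRA 34, Corin 22 and the combination 23, where a region is 1 or more overlapping peaks. Over the genome these lists held 116563, 113914, 101851 and 94917 regions in the same order. They covered 18.1 kb with DMSO, 17.8 kb with ATRA, 16.6 kb with Corin and 17.9 kb with the combination. The ATRA list thus had more and narrower regions over a similar length. With lists cut to equal length the window held 23 regions with DMSO, 27 with ATRA, 22 with Corin and 23 with the combination. Of the 34 union regions, 19 were called in all 4 lists (41.1% over all union regions) and 15 (44.1%) were absent from at least 1, against 58.9% over all union regions. At the level of summits, matched within 50 bp, 77 positions were found, of which 31 were in all lists and 30 in a single list. Summits were not matched over the genome, so these counts have no share to be set beside. Of the union regions absent from some list, 6 were found with ATRA only (11.4% over all union regions), 2 with ATRA and the combination only (3.2%), 2 with DMSO only (10.2%) and 1 with Corin only (8.05%).

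**Figure D1:**
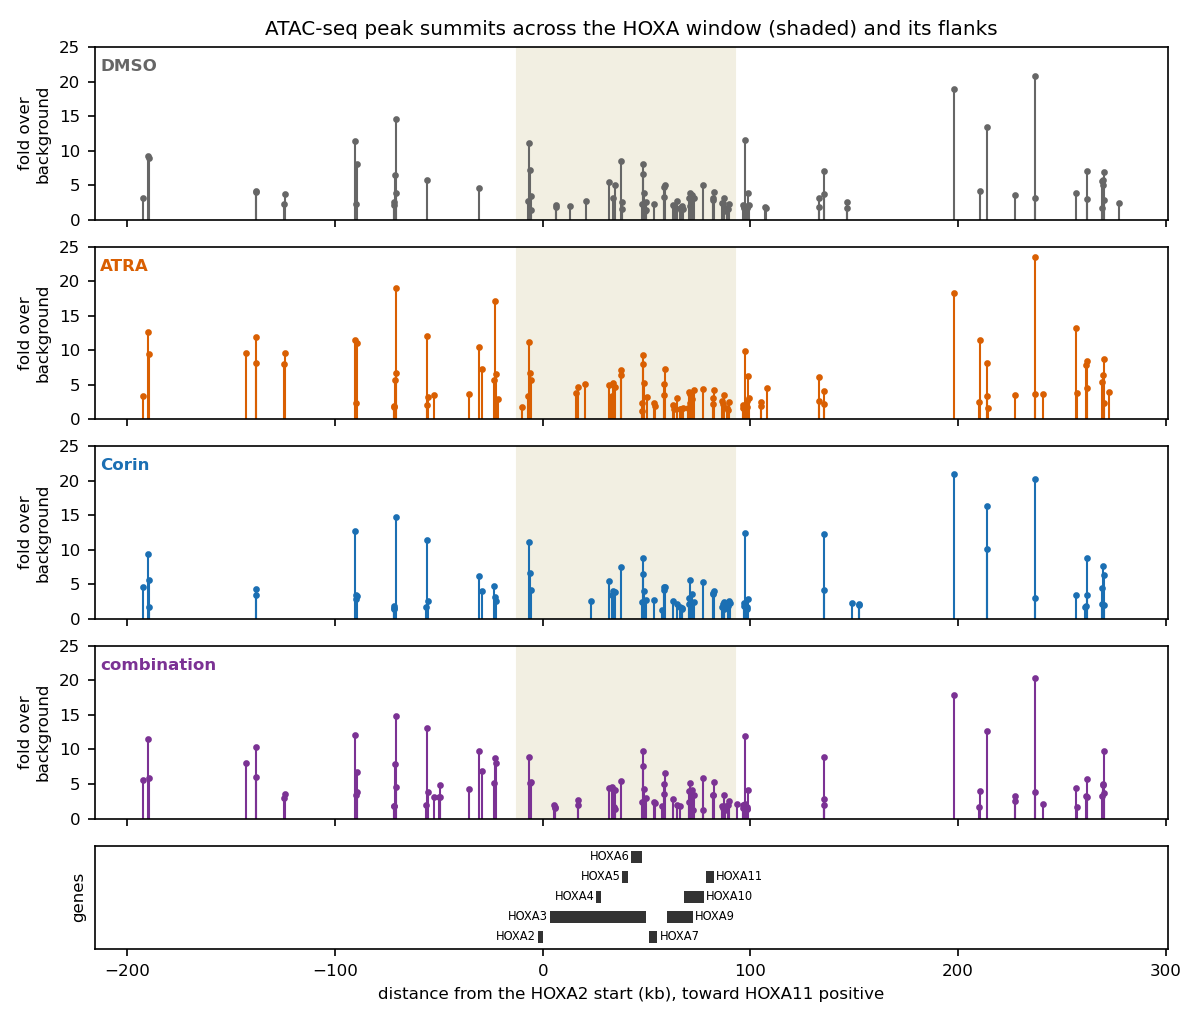
Peak summits by distance from the HOXA2 start in kb, with the HOXA11 direction positive; line height is the authors' fold over local background, 1 panel per list, with the window shaded and the 9 gene bodies below. The DMSO list has 25 regions in the shaded window and 8 on the HOXA2 side, and the ATRA list has 34 and 14.

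The coding transcription starts of 4 genes had no region within 1 kb in any list. HOXA2, a patterning gene of the hindbrain and branchial arches, had no region within 1 kb of a coding start in any list. Its nearest region lay 5114 bp away at 27095469–27097569, over the start of HOTAIRM1, a long noncoding RNA, and over exons of a coding gene of the cluster that is not among the 9. The fold of that region over local background, the authors' value used throughout, was 11.1 with DMSO, 11.2 with ATRA, 11.1 with Corin and 8.89 with the combination. It was among the strongest regions of the window in every list, and the combination had the lowest fold there. HOXA4, HOXA5 and HOXA6, which pattern the neck and thorax, also had no region within 1 kb of a coding start. Their nearest regions lay 3581, 2703 and 2511 bp away. The one nearest HOXA6, 27150285–27151522, covers noncoding exons in the HOXA6 and HOXA3 bodies and had a fold of 8.12 with DMSO, 9.25 with ATRA, 8.89 with Corin and 9.75 with the combination. It also covers 27150603, the 5′ end of the annotated HOXA6 gene body, and was high in every list. The one nearest HOXA4, 27134361–27134816, lies in a HOXA3 intron, where DMSO had 5.42, ATRA 5.0, Corin 5.43 and the combination 4.39. Over all 19663 coding genes, 27.8% had no start region in any list and 63.7% had one in all 4, against 4 and 5 of the 9 HOXA genes.

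HOXA3, which is needed for thymus and parathyroid development, has several annotated coding starts over a long gene body. Its strongest start region, at 27140009–27140978 over a UTR exon, had a fold of 8.48 with DMSO, 7.10 with ATRA, 7.51 with Corin and 5.5 with the combination. In fold the 3 treated lists were below DMSO, the combination furthest. Read pileup, relative to the most frequent background of each list, was 42.5 with DMSO, 54.5 with ATRA, 31.9 with Corin and 35.2 with the combination. By that measure ATRA was above DMSO and Corin was lowest. The start region at 27152033–27152951 had a fold of 2.55 with DMSO, 3.24 with ATRA, 2.79 with Corin and 2.90 with the combination. A weaker region over the start at 27119595 was called with ATRA (fold 4.61) and the combination (2.66) and in neither list without ATRA. A further one 990 bp from that start was called with ATRA only, with a fold of 3.82.

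HOXA7 and HOXA9, the latter a driver of self-renewal in myeloid leukaemia, had low folds at their starts. The local background that divides the fold was high under both regions named first below. Relative to the most frequent background of its list, it was 8.87 with DMSO and 13.3 with ATRA at HOXA7. At HOXA9 it was 14.9 and 22.0, so a low fold there does not mean a low pileup of reads. HOXA7 has 2 annotated coding starts, and the regions here lie at the 1 at 27156675. The region 27155892–27156386, 289 bp from that start, had a fold of 2.25 with DMSO, 2.28 with ATRA, 2.79 with Corin and 2.44 with the combination. A region over the same start, 27156546–27156796, was called with ATRA (1.93) and the combination (2.22) only. The lists without ATRA therefore had a call beside that start but none on it.

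At HOXA9 the start region 27165312–27165792 had a fold of 2.07 with DMSO, 2.04 with ATRA, 2.52 with Corin and 2.86 with the combination. The neighbouring region 27166005–27166336 was called with DMSO (1.95) and ATRA (1.45) and in neither list with Corin. The same presence was seen at 27191126–27191448 beyond HOXA11, called with DMSO (1.76) and ATRA (1.60) only.

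HOXA10, another gene of immature myeloid cells, had 3 start regions, all called in every list. At 27172908–27174928 the fold was 3.82 with DMSO, 4.0 with ATRA, 5.68 with Corin and 5.20 with the combination. The 2 lists with Corin were the higher ones there in fold. In pileup relative to the most frequent background ATRA was highest, at 99.2, against 57.0 with DMSO, 63.8 with Corin and 70.4 with the combination. The strongest summit of that region lay at 27173045 with ATRA and between 27173654 and 27173657 in the other 3 lists. The start region 27179609–27180500 had a fold of 5.05 with DMSO, 4.34 with ATRA, 5.41 with Corin and 5.93 with the combination. Its relative pileup was 61.5, 89.5, 43.1 and 58.1 in the same order, so ATRA was lowest in fold and highest in pileup. Between these, the region 27175076–27175698 reached 3.09 with DMSO, 4.30 with ATRA, 2.49 with Corin and 3.45 with the combination, highest with ATRA. HOXA11, a gene of limb and kidney patterning, had 1 start region, 27184308–27185713, with a fold of 4.06 with DMSO, 4.28 with ATRA, 4.09 with Corin and 5.35 with the combination, the last being the highest.

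**Figure D2:**
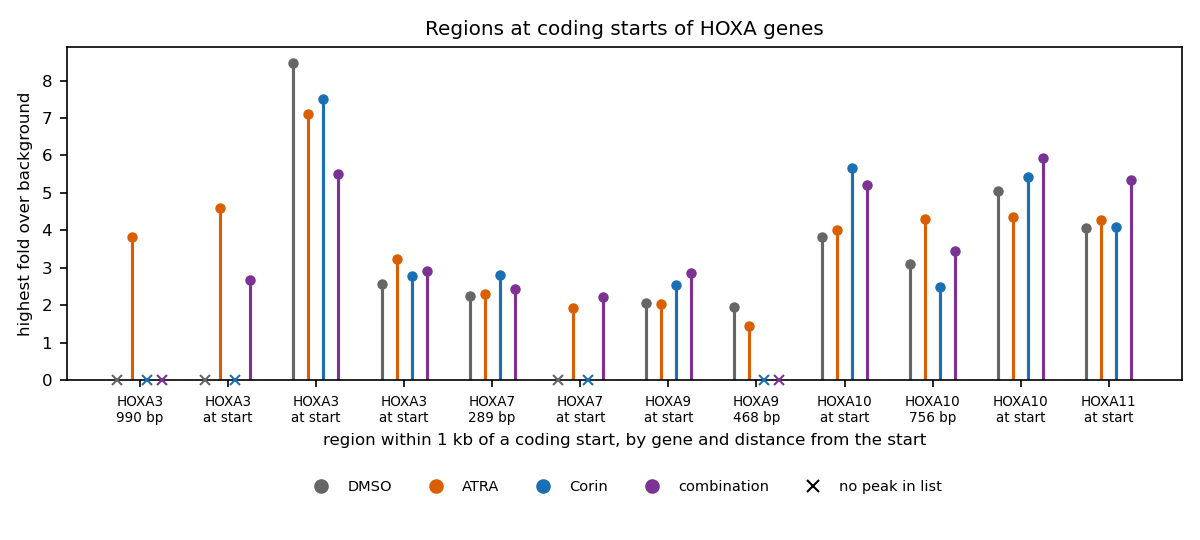
Highest fold over local background of each region within 1 kb of a coding start, in genome order, with a cross where a list has no peak; the label gives the gene and the distance from its start. HOXA3 reaches 8.48 with DMSO, and HOXA2, HOXA4, HOXA5 and HOXA6 have no such region and are not shown.

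The window region with the largest increase of centred fold from DMSO to ATRA, 0.43 on the log2 scale and short of the 1.5-fold limit used below, was in an intron of HOXA3. The region 27135930–27137069 had a fold of 3.07 with DMSO, 5.21 with ATRA, 3.97 with Corin and 4.62 with the combination, so all treated lists were above DMSO. A summit at its near edge, 27136097–27136106, was called at 3.42 with ATRA, 3.48 with Corin and 4.62 with the combination and not with DMSO. Beside it, 27135377–27135598 was called with ATRA only, at a fold of 3.0. Between HOXA7 and HOXA9, the intergenic region 27160243–27162165 had a fold of 5.06 with DMSO, 7.30 with ATRA, 4.64 with Corin and 6.61 with the combination. There the 2 lists with ATRA were above the 2 without it. This region was named for its centred difference of ATRA from DMSO, so ATRA above DMSO follows from that choice. The difference was 0.19, also short of the limit.

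Further regions of the window had another order. In the HOXA9 gene body, 27167054–27167512 had a fold of 2.75 with DMSO, 3.08 with ATRA, 2.09 with Corin and 1.92 with the combination. At HOXA11-AS, an antisense RNA of HOXA11, 27188699–27189077 had 2.36 with DMSO, 2.58 with ATRA, 1.68 with Corin and 1.83 with the combination. In both the 2 lists with Corin were lower than the 2 without. Both regions were named for the lowest centred differences of Corin from DMSO, so Corin below DMSO follows from that choice. These differences were −0.31 and −0.40, short of the 1.5-fold limit used below. The sequence of the HOXA11-AS region holds 1 of the 2 CTCF matches among the 34 window regions, where 6.82% of all regions had one. The region 27169588–27170267 was called with DMSO (1.93), ATRA (1.66) and Corin (1.62) and not with the combination. In an exon of HOXA-AS2 inside HOXA3, 27122860–27123088 was called with ATRA only, at 5.13.

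Gains and losses in the window were then set beside those over the genome. A gained region has no counterpart of at least 1 bp in the other list, and a lost region is one of the other list without a counterpart. ATRA gained 9 of its 34 window regions (23.1% over the genome) and lost 3 of the 25 DMSO regions (25.3%). Corin gained 1 of 22 (17.7%) and lost 5 of 25 (28.5%). The combination gained 2 of 23 (16.7%) and lost 5 of 25 (31.5%). These 3 comparisons share the DMSO list. Against ATRA, the combination gained 1 of 23 (15.5%) and lost 9 of 34 (28.4%), and against Corin it gained 3 of 23 (20.6%) and lost 3 of 22 (25%). The gains with ATRA were thus near the genome share, and those with Corin and the combination below it.

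Among regions held by both lists, differences of log2 fold were centred on the median over all shared regions, and a region was called past 1.5-fold. ATRA against DMSO gave 0 higher (16.6% over the genome) and 2 lower (8.8%) of 22 window regions, the HOXA3 start region at 27140009 (−0.59) and the HOXA9 region at 27166005 (−0.76). Without centring 1 was higher and 0 lower, and with pileup 2 and 0. The median difference with ATRA was −0.29 after centring and turned to 0.04 without it and to 0.16 with read pileup in place of fold. Corin gave 1 higher (6.34%), the HOXA10 start region at 27172908 (0.66), and 0 lower (10.8%) of 20, with a median of 0.09 that turned to −0.24 with pileup. Its 1 call ended without centring, where the difference was 0.57, and with pileup 0 were higher and 3 lower. The combination against DMSO gave 0 higher (8.26%) and 1 lower (12.1%) of 20, the HOXA3 start region at 27140009 (−0.65), with a median of 0.12.

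The combination was also compared with each compound. Against ATRA, 5 of 21 window regions were higher (7.18% over the genome) and 0 lower (18.1%). These 5 included the start regions of HOXA9 (0.83), HOXA10 (0.79 at 27179609 and 0.72 at 27172908) and HOXA11 (0.66). Without centring 0 were higher and 2 lower, and with pileup 0 were higher and 4 lower, so the direction rests on the scale. Against Corin, 0 of 19 were higher (9.71%) and 0 lower (8.97%), with a median of 0.01.

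**Figure D3:**
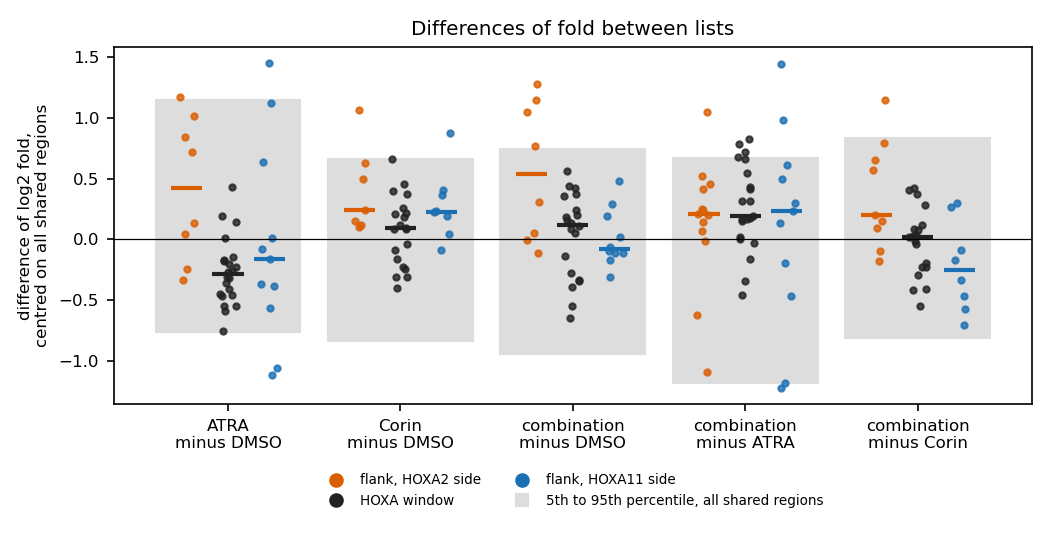
Difference of log2 fold between 2 lists after centring on all shared regions, 1 point per region, for the HOXA2-side stretch, the window and the HOXA11-side stretch; lines are medians and grey boxes span the percentiles named in the legend over all shared regions. The window's median with ATRA against DMSO is −0.29 and that of the HOXA2 side is 0.43.

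The local background under the regions, which divides the fold, was high across much of the window. It was solved from the authors' fold and p and is given relative to the most frequent background of its list. From 27134361, beyond the HOXA4 start, to the HOXA11 side, the median was 11.5 times that level with DMSO, 18.7 with ATRA, 8.13 with Corin and 9.73 with the combination. The highest values there were 16.1, 24.7, 11.9 and 13.8 in the same order. Only 0.5%, 0.407%, 1.48% and 1.70% of all regions of these lists had a higher background. From the HOXA2 side to the HOXA4 start, the medians were 1.34, 1.21, 3.26 and 1.49. They rest on 4, 5, 2 and 3 regions, and the 2 with Corin had 1.14 and 5.39. That stretch had 9 union regions, 1 of them in all lists, whereas the stretch toward HOXA11 had 25, of which 18 were in all lists. The 2 stretches were separated after their values were seen. ATRA had the highest relative background at the HOXA11 end and also the lowest most frequent background over the genome, 9.12 against 12.8 with DMSO, 13.1 with Corin and 13.9 with the combination. The part of these levels in the differences of fold was not tested.

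**Figure D4:**
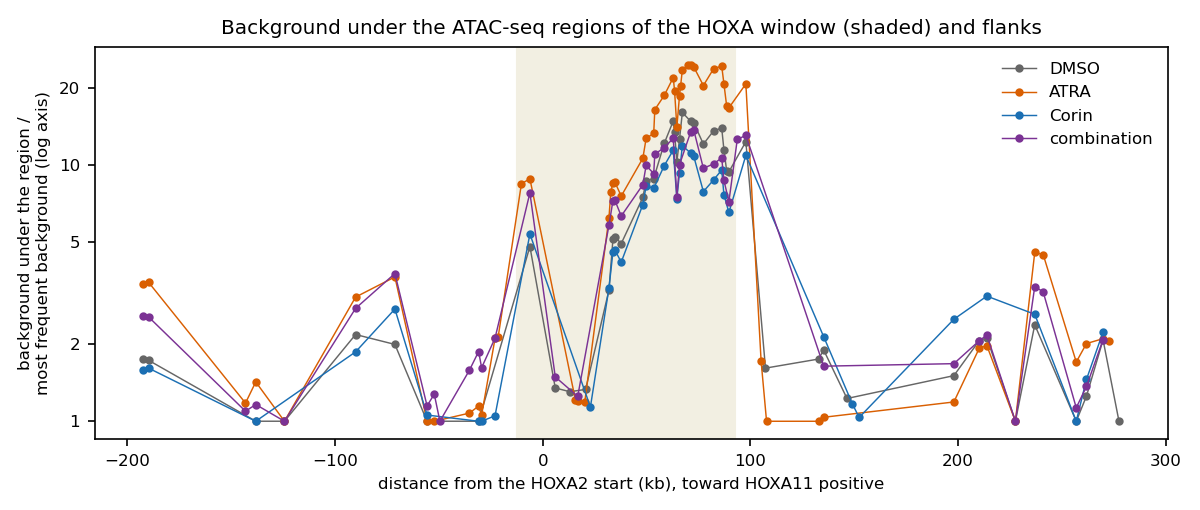
Background under each region divided by the most frequent background of its list, on a log axis, by distance from the HOXA2 start in kb, with the window shaded and 1 line per list. Within the window it is highest at regions overlapping the HOXA9 body, with 24.7 for ATRA, 16.1 for DMSO, 13.8 for the combination and 11.9 for Corin.

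Outside the genes on the HOXA2 side, the lists with ATRA held more regions than the DMSO list. This stretch runs through intergenic sequence into introns of SKAP2, a gene of an adaptor protein of blood cells. The DMSO list had 8 regions there, ATRA 14, Corin 9 and the combination 14. ATRA gained 6 of its 14, the combination 6 of its 14 and Corin 2 of its 9, and of the 8 DMSO regions 0, 0 and 1 were lost. The shares over the genome, in the same order, were 23.1%, 16.7% and 17.7% for gains and 25.3%, 31.5% and 28.5% for losses. With lists cut to equal length the gains with ATRA fell to 3, while those with the combination stayed at 6. Of 15 union regions, 3 were found with ATRA and the combination only, 2 in every list but DMSO (0.952% over all union regions) and 1 with the combination only (3.93%).

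Nearest the genes, 8 regions lay between 52.9 and 19 kb from the HOXA2 body, a group set apart after its values were seen. The DMSO list held 2 of them, ATRA 7, Corin 4 and the combination 7. Over the genome these lists held 116563, 113914, 101851 and 94917 regions, beside 161291 union regions. Because the group was picked by its values, its counts are a description only. The region 27079260–27080186, 20.2 kb from HOXA2, was not called with DMSO and had a fold of 17.1 with ATRA, 4.73 with Corin and 8.77 with the combination. With ATRA it ranked at the 79.0th percentile of its list by −log10 p, with Corin at the 40.9th and with the combination at the 65.5th. At its middle summit, where the spacer-2 repeat printed above lies, the folds were 17.1, 3.19 and 8.77, so ATRA was highest and Corin lowest.

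The region 27073107–27073429, with the PU.1 match, was not called with DMSO and had a fold of 7.34 with ATRA, 4.10 with Corin and 6.92 with the combination. The region 27071590–27072061, with the spacer-5 repeat, was called in all lists, at 4.64 with DMSO, 10.5 with ATRA, 6.15 with Corin and 9.78 with the combination. In both, the 2 lists with ATRA were above Corin alone, and in the second Corin lay above DMSO. The spacer-5 repeat was found in 0.0905% of all regions and the spacer-2 repeat in 0.17%. Each was found in 1 of the 15 regions on this side and in 0 of the 34 window regions.

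At 27046528–27047473 the order was another one. Its fold was 5.80 with DMSO, 12.1 with ATRA, 11.4 with Corin and 13.1 with the combination, so each compound alone was near the combination. The centred differences from DMSO were 0.72, 1.06 and 1.14. In introns of SKAP2, the region 26964185–26964832 had a fold of 4.20 with DMSO, 11.9 with ATRA, 4.39 with Corin and 10.4 with the combination. There the pair with ATRA was high and the pair without it low. Its difference was 1.17 for ATRA against DMSO and 1.15 for the combination against Corin, which share no list. Of the 7 regions in all lists on this side, it was the 1 past 1.5-fold in both comparisons after centring, as were 6.13% of such regions over the genome. Without centring 27071590–27072061 also passed in both, at 1.18 and 0.67. Its neighbour 26959305–26959807 was called with ATRA (9.63) and the combination (8.0) only.

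Another SKAP2 region, 26977981–26978669, was high with ATRA alone, at 9.59, against 3.77 with DMSO and 3.55 with the combination, and was not called with Corin. The 2 regions of this side with the highest −log10 p differed less between lists. At 27030782–27032235 the fold was 14.6 with DMSO, 19 with ATRA, 14.8 with Corin and 14.8 with the combination, and at 27011796–27013372 it was 11.4, 11.4, 12.7 and 12. After centring, 4 of 8 shared regions were higher (16.6% over the genome) and 0 lower (8.8%) with ATRA against DMSO. With Corin 2 of 7 were higher (6.34%) and 0 lower (10.8%), and with the combination 4 of 8 were higher (8.26%) and 0 lower (12.1%). The medians were 0.43, 0.24 and 0.54. Against ATRA the combination had 1 higher (7.18%) and 2 lower (18.1%) of 13, which became 6 and 1 with pileup, and the median of 0.21 turned to −0.13 without centring. Against Corin it had 3 higher (9.71%) and 0 lower (8.97%) of 9.

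**Figure D5:**
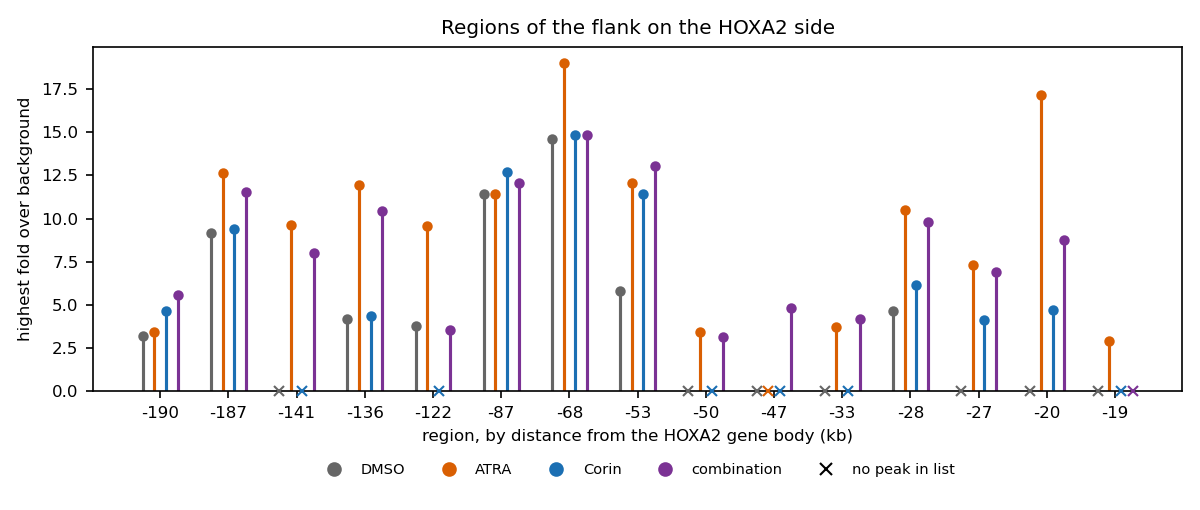
Highest fold over local background of the 15 regions on the HOXA2 side, ordered by distance from the HOXA2 gene body in kb, with a cross where a list has no peak. DMSO has no peak at 20.2 kb, where ATRA reaches 17.1, the combination 8.77 and Corin 4.73.

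The HOXA11 side showed differences in both directions. The DMSO list had 15 regions there, ATRA 17, Corin 11 and the combination 12. ATRA gained 4 of 17 (23.1% over the genome) and lost 3 of 15 (25.3%). Corin gained 2 of 11 (17.7%) and lost 7 of 15 (28.5%), and the combination gained 2 of 12 (16.7%) and lost 4 of 15 (31.5%). Most of these counts were near the genome shares. The region 27198884–27202135 lay in the body of HOTTIP, a long noncoding RNA of this end of the cluster, past its annotated start at 27198575. It also covered exons of a coding gene outside the 9. Its fold was 11.6 with DMSO, 9.89 with ATRA, 12.5 with Corin and 11.9 with the combination, lowest with ATRA. The other strong region named by rule, 27338997–27340253, had 20.9, 23.5, 20.2 and 20.4 in the same order.

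Several intergenic regions of that side differed between ATRA and DMSO. At 27359183–27360052 the fold was 3.84 with DMSO, 13.2 with ATRA, 3.4 with Corin and 4.48 with the combination. At 27312675–27313198 it was 4.19 with DMSO, 11.5 with ATRA and 4.0 with the combination, with no call with Corin. In these the highest fold of the combination was near that of DMSO and not near that of ATRA. In the first, however, the summits of these folds differed in position. They lay at 27359374–27359395 with DMSO and ATRA and at 27359547–27359571 with Corin and the combination. The reverse was found at 27316108–27317033, where DMSO had 13.4, ATRA 8.11, Corin 16.3 and the combination 12.7, and at 27237596–27238390, where they had 7.08, 4.11, 12.3 and 8.84. There ATRA alone was lowest and Corin alone highest. These regions were chosen after their values were seen, except 27312675, which with 27343528–27343843 (3.68 with ATRA, 2.10 with the combination, not called in the other lists) was named by rule.

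Motifs were searched in 200 bp at the strongest summit of each region. Of the 15 regions on the HOXA2 side, 6 held the half-site, as did 2 of 34 in the window and 3 of 21 on the HOXA11 side, against 13.0% of all regions. A C/EBP match (TTGCNNAA) was found in 6, 3 and 4 of these regions (14.5% of all), an AP-1 match in 2, 2 and 3 (12.2%) and a PU.1 match in 2, 2 and 3 (6.73%). MEIS (TGACAG) was found in 3, 2 and 2 (15.3%), HOX/PBX (TGATTNAT) in 0, 0 and 1 (2.45%) and RUNX (TGTGGTTT) in 0 of each (3.82%). The median GC content was 43% on the HOXA2 side, 57% in the window and 48% on the HOXA11 side, against 49.5% over all regions.

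The genes that work with or above the HOXA genes were mostly open throughout. Of 22 cofactors and regulators, 21 had a start region in all 4 lists, against 63.7% of coding genes, CDX2 being the exception. Of the 21 strongest start regions, 0 were higher and 0 lower past 1.5-fold with each treatment against DMSO, and the medians were −0.22 with ATRA, 0.08 with Corin and −0.02 with the combination. Over all shared regions, 16.6% were higher and 8.8% lower with ATRA, 6.34% and 10.8% with Corin, and 8.26% and 12.1% with the combination. Of all union regions, at gene starts or elsewhere, 58.9% were absent from at least 1 list. This share was not computed over start regions alone. Of 37 start regions of these cofactors and regulators, 8 were absent from at least 1 list. KDM6B, a demethylase that removes the Polycomb mark, had 2 of them, each called with ATRA and the combination only. MEIS1, a HOX cofactor in leukaemia, had 1 called with DMSO only, and PBX3, its partner, had 1 called in every list but DMSO. At DOT1L, a histone methyltransferase, 1 was called with DMSO and ATRA and 1 with DMSO only. KMT2A had 1 called with Corin only and PICALM 1 called with ATRA only.

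The other HOX clusters were measured in the same way. HOXB had 7 union regions, 6 of them in all lists, HOXC had 25, of which 15 were, and HOXD 14, of which 3 were, against 19 of 34 in HOXA. The median relative background was 1.0 with DMSO in HOXB, 3.4 in HOXC and 1.92 in HOXD, below the 9.49 of the HOXA window, and with ATRA it was 1.0, 3.96 and 2.47 against 16.9. Whether the clusters differ could not be tested with 1 list per group.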

How the data were processed

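The 8 U-937 ATAC-seq samples, 2 per group, were grouped by the labelled treatment. The deposited data were 1 narrowPeak list per group, with the replicates already combined by the authors. Per the submitters' processing notes, cutadapt, Bowtie2, SAMtools, Picard and MACS2 were used with the build hg38. Their settings are not given in the sources used here. In the deposited lists the fold over local background is a ratio, p and q are −log10 values, and the summit is an offset in bp, all the authors'. The read depth is unknown, and 0 columns of other samples were present.

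Overlapping peaks of a list were merged to regions and joined over the 4 lists. A counterpart overlapped by at least 1 bp. The highest fold in a region was compared as log2 differences, which were centred on all shared regions and called past 1.5-fold. Pileup and background were solved from fold and p by the Poisson distribution. The solved pileup was whole within 0.05 for 99.97%, 99.98%, 99.98% and 99.96% of peaks with DMSO, ATRA, Corin and the combination. Genes are from GENCODE release 44, and sequences were read from hg38. Analyses used Python 3.11.15, pandas 2.3.3 and scipy 1.17.1, and were tested on simulated data.

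The genes, lists and comparisons were chosen with earlier results of these data known. By rule the text names all 9 genes and the strongest region at their starts, the 5 strongest window regions absent from a list, the 2 highest and 2 lowest differences of each treatment from DMSO, and in each flank the 2 strongest regions and the 2 strongest absent from a list. Other regions were chosen after their values were seen. TRBC2 had no start of the coding type used. A sequence window that overlapped a UTR was left out, and 1 listed marker gene and 1 sequence are not reported here. Alternatives are listed with their effects in the closing section.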

Additional observations from a re-analysis of the deposited data

How the results depend on the processing

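No paired analysis was possible because the replicates of each group were combined in 1 list. Of 296 counts under the alternatives, 249 stayed within 1.5 times their value and 47 moved, and of 80 medians 61 stayed, 14 moved and 5 reversed. The cause of these changes was not tested.

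Without centring, the window's median difference became 0.0447 for ATRA against DMSO and −0.14 for the combination against ATRA, and the HOXA2 side's became −0.13 for the combination against ATRA. In the window, regions higher and lower became 1 and 0 for ATRA against DMSO and 0 and 2 for the combination against ATRA, and 0 were higher with Corin and 1 with the combination against DMSO. On the HOXA2 side 1 was higher with Corin.

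With pileup over the most frequent background, the window's medians became 0.16 for ATRA and −0.24 for Corin against DMSO. Window regions higher and lower became 2 and 0 with ATRA, 0 and 3 with Corin and 1 and 2 with the combination against DMSO, and 0 and 4 for the combination against ATRA. Against Corin 2 were higher with the combination. On the HOXA2 side the combination had 6 higher and 1 lower against ATRA and 6 higher against Corin.

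Past 2-fold, window regions numbered 0 lower with ATRA, 0 higher with Corin and 0 lower with the combination against DMSO, and 0 higher with the combination against ATRA. On the HOXA2 side 2 were higher with ATRA and 1 with Corin against DMSO, and the combination had 1 lower against ATRA and 1 higher against Corin. Centring within 10 classes of strength gave the combination 1 higher in the window against DMSO and 2 higher on the HOXA2 side against ATRA.

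With lists of equal length, 1 window region was lower with ATRA, 3 were lost with Corin, and the combination gained 2 and lost 4 against ATRA. On the HOXA2 side ATRA gained 3, and the combination gained 3 and lost 0 against ATRA. A −log10 q of at least 5 left 1 window region lost with ATRA, 3 lost with Corin and 0 gained with the combination against ATRA. An overlap of at least 50% gave 2 gained with Corin.

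A flank of 100 kb on the HOXA2 side, chosen after seeing the data, left there 2, 1 and 2 regions higher with ATRA, Corin and the combination against DMSO, and 0 lost with Corin. The combination then had 0 higher and 1 lower against ATRA and gained 3 against Corin. The HOXA11 side was not run under these alternatives. Depth is unknown, so a missing call is not evidence of closed chromatin.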
